A study of Mus musculus with 6 samples.

Results

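The 10 genes described here carry the signal of insulin and of insulin-like growth factor 1 from the cell surface to the kinase Akt. They are the growth factor Igf1, the binding protein Igfbp5, the receptors Insr and Igf1r, the adaptors Irs1 and Irs2, the regulatory subunit Pik3r1 of phosphoinositide 3-kinase (PI3K), and the kinases Pdpk1, Akt1 and Akt2. They were chosen by name, with earlier results of these data known. In the deposited expression table, 10 of 10 were found among the 13363 listed genes. The study examined gastrocnemius muscle of male Balb/c mice, which were 6 weeks old when purchased and were kept for 1 week before use. Mice of the C26 group had been inoculated under the skin of the flank with cells of C26, a mouse colon adenocarcinoma line that is used to provoke cachexia, the wasting of muscle and fat that accompanies some tumors, and mice of the control group received no tumor cells. RNA from 3 muscles per group was sequenced. The comparison therefore sets a growing tumor of a single cell line against no inoculation, and it measures RNA only, not protein or phosphorylation.

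Insulin and insulin-like growth factor 1 bind closely related receptor tyrosine kinases, which phosphorylate the IRS adaptors. The adaptors recruit PI3K to the membrane, the lipid it makes brings PDK1 (the product of Pdpk1) and Akt together, and PDK1 phosphorylates Akt. In skeletal muscle Akt favors glucose uptake, glycogen synthesis and protein synthesis, and it keeps FoxO transcription factors, which drive genes of muscle protein breakdown, out of the nucleus. Binding proteins hold the growth factor outside the cell and can limit or prolong its action.

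Expression was given as FPKM, a count of sequenced fragments corrected for transcript length and for library size, so that levels of different genes could be set side by side. Fold changes were computed on log2(TPM + 1), where TPM are the FPKM of a muscle rescaled to a common sum and adjusted by TMM, and were tested with limma over all listed genes. A gene was called when its Benjamini-Hochberg adjusted p was under 0.05. In C26 muscle the receptors, Irs2, Pik3r1 and the kinases rose, while the growth factor and its binding protein fell. Of the 10 genes, 7 were called higher, 2 were called lower and 1, Irs1, was not called. Over all listed genes the shares called were 19.4% higher and 14.5% lower, or 33.8% in either direction. This background depended on the scaling and on single muscles: with FPKM as deposited 1678 genes were called higher and 2504 lower, so that 40.1% of the calls were higher in place of 57.3%, and without C26 replicate 1 the counts fell from 2589 and 1932 to 1128 and 669. The FPKM of the C26 and control muscles did not overlap for 9 of the 10 genes, against 53.3% of all genes. The median log2 fold change of the 10 genes was 1.17, and that of all listed genes was -0.05. With the further criterion of a fold change above 4, the calls were Irs2 and Akt1 among the higher genes and Igfbp5 among the lower, where 1.76% and 1.73% of all genes passed in those directions.

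Both groups of libraries carried the genes of muscle fibers: 12 of 12 fiber markers were listed, with a summed level of 70114 to 99633 FPKM in C26 and 128000 to 133296 FPKM in control muscle. Limma called 1 of these markers higher and 1 lower, and did not call 10. The FPKM of all genes also added up to less in C26, at 531061 to 585169 against 626992 to 688300. A library of each group stood apart in genes that were picked after their values were seen. C26 replicate 3 had 2555 FPKM of the myosin gene Myh1 and 4906 FPKM of the myoglobin gene Mb, against 254 to 299 and 74.0 to 275 FPKM in the other C26 muscles. The control muscles had 92.8 to 331 FPKM of Myh1 and 578 to 1569 FPKM of Mb. Control replicate 3 had 40.1 FPKM of the leukocyte gene Ptprc, against 0.40 and 0.81 FPKM in the other control muscles. Without both of these libraries, 7 of the 10 genes were again called higher and 2 lower. C26 replicate 2 had an outlying value too, 247 FPKM of the macrophage gene Cd68 against 34.9 and 6.46 FPKM in the other C26 muscles.

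**Figure D1:**
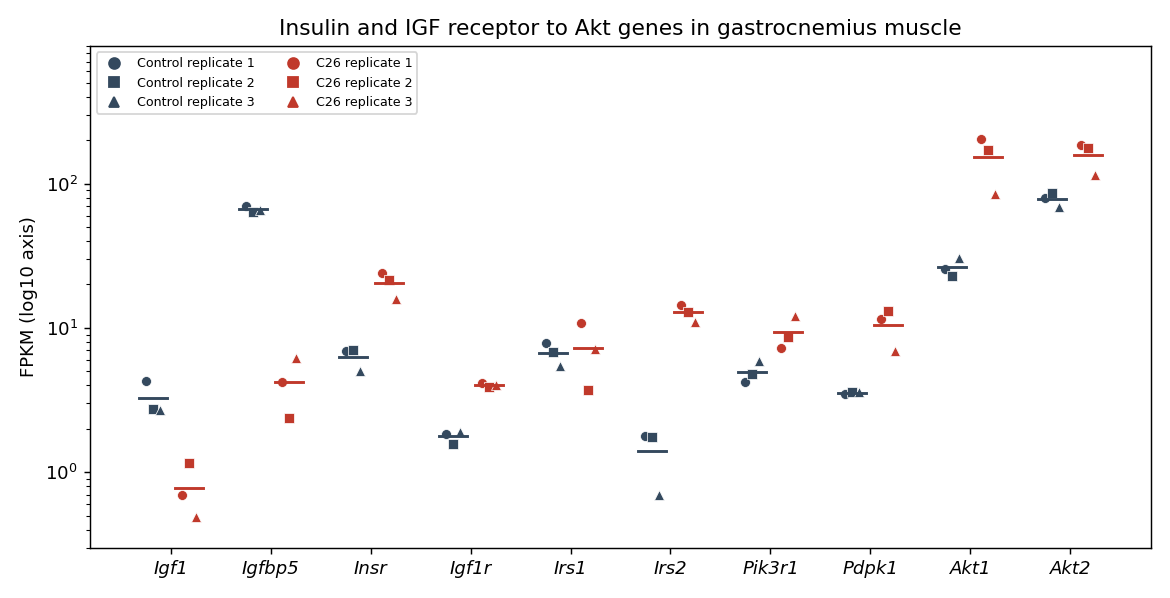
FPKM of the 10 genes in each of the 3 C26 and 3 control gastrocnemius muscles, on a log axis, with 1 point per muscle and a bar at the group mean. The points of the groups are apart for every gene except Irs1, with the widest gap for Igfbp5.

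The pathway starts outside the fiber with Igf1, a growth factor that muscle also makes for itself, and Igfbp5, which binds it and is held in the extracellular matrix. Igf1 measured 0.70, 1.16 and 0.49 FPKM in C26 replicates 1, 2 and 3 and 4.29, 2.76 and 2.70 FPKM in the control replicates. All 3 C26 muscles lay below all control muscles, and Igf1 was the lowest of the 10 genes in C26 muscle. Its mean was 0.783 ± 0.343 FPKM against 3.25 ± 0.901 FPKM (SD, n = 3), and it fell by 1.33 ± 0.23 (SE) on the log2 scale in limma with Benjamini-Hochberg adjustment (adjusted p = 0.00912). The log2 fold change was -1.81 with a pseudocount of 0.1 in place of 1, and -1.02 with quantile normalization.

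Igfbp5 changed more than any other of the 10 genes. It measured 4.2, 2.38 and 6.17 FPKM in the C26 muscles and 69.5, 64.0 and 66.0 FPKM in the control muscles. The control values lay close together, with a coefficient of variation of 4.17%, while the low C26 values varied by 44.6%. The gene fell by 3.66 ± 0.32 (SE) on the log2 scale (limma, Benjamini-Hochberg adjusted p = 0.00194), so that its level was 12.7-fold lower on the log2(TPM + 1) scale. In rank, Igfbp5 went from the 93.2nd percentile of all listed genes in control muscle to the 50.8th in C26 muscle. As an FPKM ratio within each muscle, Igfbp5 over Igf1 was 6, 2.05 and 12.6 in C26 and 16.2, 23.2 and 24.4 in control muscle. The binding protein was thus lower relative to the growth factor in every C26 muscle, with a difference of -1.96 on the log2 scale, although the exact two-sided permutation test cannot give a p below 0.1 with 3 muscles per group (p = 0.1, adjusted over 5 ratios 0.167).

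The other secreted proteins around the receptors did not all move with Igfbp5. Of 14 genes listed for ligands, binding proteins and their proteases, 11 were in the table, and limma called 5 lower and 1 higher, with a median log2 fold change of -0.63. Over all listed genes 14.5% were called lower and 19.4% higher. The higher gene was Igfbp3, the main carrier of the growth factors in blood, with 61.5, 74.8 and 19.6 FPKM in C26 and 10.4, 8.85 and 14.4 FPKM in control muscle. Its log2 fold change was 2.19 (limma, Benjamini-Hochberg adjusted p = 0.0154), and the call was lost without C26 replicate 1 or without Control replicate 1, where the log2 fold change was 1.97 and 2.13 (adjusted p = 0.0618 and 0.06), while the value was 2.82 without C26 replicate 3. Igfbp7 measured 46.2, 43.5 and 42.5 FPKM against 113, 69.6 and 125 FPKM and fell by 0.95 (adjusted p = 0.0138 by limma with Benjamini-Hochberg adjustment), and the call was lost without C26 replicate 1, C26 replicate 2 or Control replicate 1, at -0.98, -0.91 and -0.88. Igfals, which encodes a subunit of the carrier complex in blood, fell by 1.07 from a control mean of 1.24 ± 0.366 FPKM (SD, n = 3), a call lost without the same 3 muscles in turn, at -1.01, -0.94 and -0.94, with quantile normalization, at -0.74, and with the replicate number as a block (limma, Benjamini-Hochberg adjusted p = 0.0748 and 0.0559 in the last 2). With a pseudocount of 0.1 in place of 1 the Igfals value was -2.19. Igfbp4 fell by 0.63, and only the fit without Control replicate 2 kept this call when a muscle was left out, the others giving -0.62 to -0.55 with limma Benjamini-Hochberg adjusted p up to 0.118. The Igfbp4 call was also lost with a pseudocount of 0.1, with TPM without TMM, with the replicate block and without both libraries that stood apart (limma, Benjamini-Hochberg adjusted p = 0.0551, 0.0617, 0.0695 and 0.0985), and the value was -1.02 with quantile normalization. Igf2, the second growth factor of the family, measured 11.1 ± 6.57 against 20.8 ± 2.93 FPKM (SD, n = 3) and was not called (limma, Benjamini-Hochberg adjusted p = 0.15), except without C26 replicate 1, where it was -1.23 (adjusted p = 0.0476), and the value was -0.32 without C26 replicate 3.

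Among the 5 listed binding proteins Igfbp3 to Igfbp7, the make-up of the summed FPKM was therefore different. Igfbp5 made up 24.6%, 31.8% and 22.7% of the sum in the control muscles and 2.72%, 1.45% and 5.37% in the C26 muscles. Igfbp3 made up 3.67%, 4.40% and 4.95% in control and 39.9%, 45.7% and 17.1% in C26 muscle. The sum itself was 144 ± 25.9 FPKM in C26 and 258 ± 49.4 FPKM in control muscle (SD, n = 3).

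Several marker lists of cells other than fibers were also lower in C26 muscle. The summed level of 8 fibroblast markers was 173 to 219 FPKM in C26 and 383 to 470 FPKM in control muscle, with 4 of 8 called lower. That of 8 adipocyte markers was 260 to 395 FPKM against 548 to 4200 FPKM, with 6 of 8 called lower, and that of 8 pericyte and smooth muscle markers was 61.1 to 89.5 FPKM against 109 to 156 FPKM, with 3 of 8 called lower. Of the endothelial markers 2 of 8 and of the Schwann cell markers 2 of 6 were called lower, of the satellite cell markers 1 was called higher and 1 lower, and limma called 0 of 8 macrophage markers, with 2 higher and 1 lower at an unadjusted p under 0.05. The neutrophil genes S100a8 and S100a9, 2 of the 3 other leukocyte markers listed, were called higher. The FPKM of all 8 fibroblast and all 8 adipocyte markers, before rescaling, were lower in C26 without overlap. Over all listed genes 53.3% did not overlap in either direction, and 14.5% were called lower. The called fibroblast markers were Col3a1, Col1a1, Col1a2 and Lum, with log2 fold changes of -3.63, -2.97, -2.60 and -1.72. The part of these cells in the fall of Igf1 and Igfbp5 was not tested, and in whole muscle fewer cells of a type and less RNA per cell cannot be told apart.

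Both receptors rose. Insr encodes the insulin receptor and Igf1r the receptor for insulin-like growth factor 1, and the proteins can also pair into hybrids. Insr measured 23.9, 21.4 and 15.8 FPKM in the C26 muscles and 6.90, 7.08 and 5.01 FPKM in the control muscles, with no overlap. Its log2 fold change was 1.79 ± 0.22 (SE), a 3.47-fold rise (limma, Benjamini-Hochberg adjusted p = 0.00425). Igf1r measured 4.12, 3.89 and 4.03 FPKM in C26 and 1.85, 1.56 and 1.91 FPKM in control muscle. These were the most even C26 values of the 10 genes, with a coefficient of variation of 2.89%, and the log2 fold change was 1.14 ± 0.12 (SE) with an adjusted p of 0.00323 in limma with Benjamini-Hochberg adjustment.

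The balance of the receptors was compared as well. Insr made up 85.3%, 84.6% and 79.6% of the summed FPKM of Insr and Igf1r in C26 and 78.9%, 81.9% and 72.4% in control muscle. The ratio of Igf1r to Insr was 0.172, 0.182 and 0.256 against 0.268, 0.22 and 0.381, with 2 of 3 C26 muscles below all control muscles and a difference of -0.50 on the log2 scale (exact permutation p = 0.2, adjusted over 5 ratios 0.25). With a smallest possible p of 0.1, this test could not have called a difference. Igf2r, a structurally unrelated receptor that clears Igf2 from the surface, was called with a log2 fold change of 0.83 (limma, Benjamini-Hochberg adjusted p = 0.0487), but its C26 values of 11.6, 11.7 and 6.57 FPKM overlapped the control values of 6.34, 6.96 and 4.83 FPKM. That call was kept without C26 replicate 3 and lost without each other muscle, at 0.65 to 1.0, and in 4 of 7 other settings, with adjusted p up to 0.154.

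**Figure D2:**
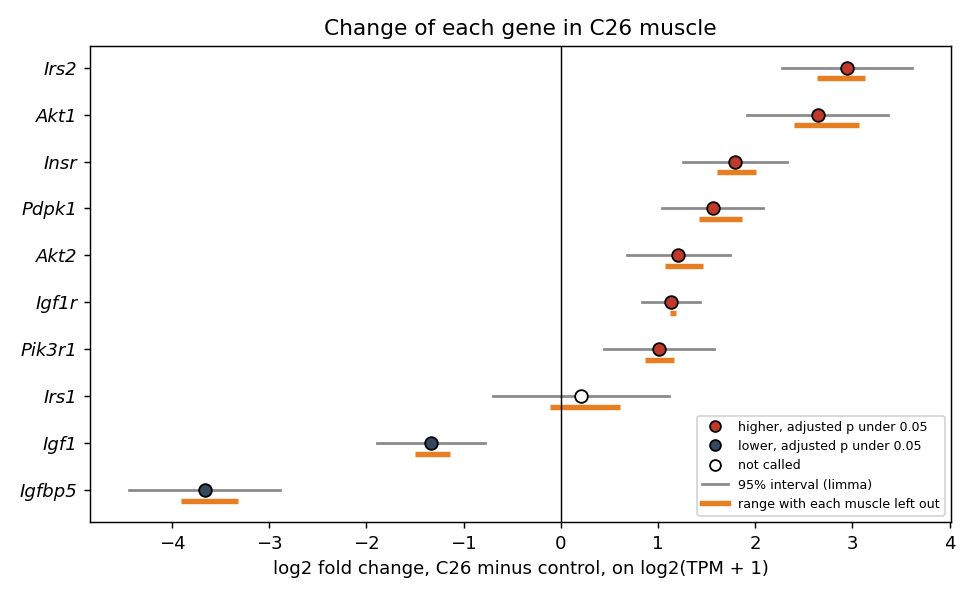
Log2 fold change of the 10 genes, C26 minus control on log2(TPM + 1), with 95% confidence intervals from limma over 3 muscles per group. The interval of Irs1, from -0.70 to 1.11, is the only one that includes 0, and those of Igfbp5 and Irs2 lie farthest from it.

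The IRS adaptors, the docking proteins that receptors phosphorylate, differed from each other. Irs2 measured 14.4, 13.0 and 10.97 FPKM in the C26 muscles and 1.79, 1.75 and 0.70 FPKM in the control muscles. The lowest C26 value was well above the highest control value, and the gene rose from the lowest place among the 10 genes in control muscle to the fourth place in C26 muscle. In rank over all listed genes it went from the 24.2nd to the 71.6th percentile. The log2 fold change was 2.95 ± 0.28 (SE), a 7.70-fold rise and the largest among the 10 genes with all muscles (limma, Benjamini-Hochberg adjusted p = 0.00220). This rank depended on the muscles used. Without Control replicate 3 the log2 fold change was 2.64 for Irs2 and 2.70 for Akt1. Akt1 also rose more than Irs2 without both libraries that stood apart.

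Irs1 gave no difference between the groups like that of Irs2. It measured 10.8, 3.74 and 7.13 FPKM in C26 and 7.84, 6.78 and 5.45 FPKM in control muscle, and the C26 values spanned all control values. Its log2 fold change was 0.21 ± 0.38 (SE), with a 95% interval from -0.70 to 1.11, and limma did not call it (Benjamini-Hochberg adjusted p = 0.689). The interval leaves room for a change of either sign, and the value was -0.11 without C26 replicate 1 and 0.61 without C26 replicate 2.

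The relation of the adaptors to each other was accordingly different in the groups. Irs2 over Irs1 was 1.33, 3.47 and 1.54 in C26 and 0.228, 0.258 and 0.128 in control muscle, so that Irs2 exceeded Irs1 in all 3 C26 muscles and in no control muscle. The difference was 3.29 on the log2 scale (exact permutation p = 0.1, the smallest possible, adjusted over 5 ratios 0.167). Of the summed FPKM of Irs1, Irs2 and Irs3, Irs2 made up 56.9%, 76.4% and 60.4% in C26 and 15.2%, 18.0% and 10.5% in control muscle. The sum was 20.2 ± 4.55 FPKM in C26 and 9.38 ± 2.55 FPKM in control muscle (SD, n = 3).

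The sequences before the starts of these genes are shown because the paralogs responded so differently and because insulin-regulated promoters are often searched for short motifs. The 250 bases before the RefSeq start on GRCm38.p6 are printed 5′ to 3′ on the gene's strand, for Irs2 at chr8:11008930-11009179 (minus strand), for Irs1 at chr1:82291440-82291689 (minus strand) and for Akt1, taken up below, at chr12:112674885-112675134 (minus strand), the farther upstream of its listed starts. Capitals mark the matched motifs.
Irs2: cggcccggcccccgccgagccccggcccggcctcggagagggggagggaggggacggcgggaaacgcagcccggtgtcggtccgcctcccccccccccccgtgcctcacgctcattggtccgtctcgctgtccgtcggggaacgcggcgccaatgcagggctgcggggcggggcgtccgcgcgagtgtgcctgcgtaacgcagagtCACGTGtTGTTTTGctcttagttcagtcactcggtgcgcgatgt
Irs1: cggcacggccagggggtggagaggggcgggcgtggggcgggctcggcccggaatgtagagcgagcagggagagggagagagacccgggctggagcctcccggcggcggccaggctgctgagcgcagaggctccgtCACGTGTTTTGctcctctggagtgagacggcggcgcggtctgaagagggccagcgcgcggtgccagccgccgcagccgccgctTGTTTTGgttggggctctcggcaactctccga
Akt1: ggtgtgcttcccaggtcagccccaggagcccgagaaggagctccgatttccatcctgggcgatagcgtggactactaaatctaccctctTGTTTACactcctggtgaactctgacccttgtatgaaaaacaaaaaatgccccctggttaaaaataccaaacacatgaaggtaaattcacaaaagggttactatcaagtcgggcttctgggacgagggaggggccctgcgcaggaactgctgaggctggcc

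Searched on both strands were the E-box CACGTG, the insulin response element core CAAAACA, the FoxO site GTAAACA, the cyclic AMP response element TGACGTCA and the STAT site TTCNNNGAA. In Irs2 the E-box lay 44 to 39 bases before the start and the insulin response element, read on the other strand as TGTTTTG, 37 to 31 bases before it. In Irs1 both motifs were present too: the E-box lay 115 to 110 bases before the start and overlapped one TGTTTTG, which lay 111 to 105 bases before it, and another TGTTTTG lay 32 to 26 bases before it. Both motifs together were found in 0.295% of the 32851 RefSeq windows of the same length, and 6.02% held the E-box and 5.56% the insulin response element. The adaptor that rose and the adaptor that was not called thus carried the same pair of motifs in this window. Windows of 9 of the 10 genes, 15 in all, were searched. The only other matches were a FoxO site in Akt1, read as TGTTTAC and lying 161 to 155 bases before the start, and a STAT site in Akt2, TTCGGGGAA, which lay 160 to 152 bases before the first of its starts, motifs held by 3.17% and 7.02% of all windows. The CRE was held by 1.55% of all windows.

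Of 12 listed adaptors 11 were in the table, with 3 called higher, 2 lower and 6 not called, and a median log2 fold change of 0.21. Over all listed genes the shares were 19.4% higher and 14.5% lower. Besides Irs2 the higher adaptors were Appl2, which binds Akt and adiponectin receptors, and Gab2, a docking protein for growth factor receptors. Appl2 measured 24.5, 22.0 and 15.7 FPKM in C26 and 10.6, 9.04 and 8.56 FPKM in control muscle, a log2 fold change of 1.28 (limma, Benjamini-Hochberg adjusted p = 0.00620). Gab2 had a log2 fold change of 0.78, and its call was lost without C26 replicate 1, C26 replicate 2 or Control replicate 1, at 0.80, 0.72 and 0.86. The lower adaptors were Sh2b2, which binds the activated insulin receptor, and Irs3. Sh2b2 measured 1, 0.76 and 0.83 FPKM against 3.13, 3.63 and 3.42 FPKM and fell by 1.29 (limma, Benjamini-Hochberg adjusted p = 0.00387). Irs3 fell by 1.17 from a control mean of 1.28 ± 0.798 FPKM (SD, n = 3), a call kept without Control replicate 3 and lost without each other muscle, at -1.27 to -0.88, and with quantile normalization, at -0.87 (adjusted p up to 0.108 by limma with Benjamini-Hochberg adjustment). With a pseudocount of 0.1 the Irs3 value was -2.46.

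Of 14 genes that restrain the receptors and IRS proteins, limma called 3 higher and 1 lower, against 19.4% and 14.5% of all genes. It did not call 10 of the 14. Without both libraries that stood apart 6 of the 14 were called higher, and without single muscles the number called lower was between 0 and 2. Cblb, a ubiquitin ligase that marks IRS1 for breakdown, measured 10.2, 9.83 and 6.02 FPKM in C26 and 2.58, 2.94 and 3.78 FPKM in control muscle. Its groups did not overlap, and its log2 fold change was 1.49 (limma, Benjamini-Hochberg adjusted p = 0.00589). Ptpn2, a phosphatase that acts on the insulin receptor, had a log2 fold change of 1.1 and Trim72, a muscle ubiquitin ligase, one of 0.85, a call lost without each of the 6 muscles in turn, at 0.61 to 1.0 (adjusted p up to 0.102). The Trim72 call was also lost in 4 of 7 other settings, with 0.43 under quantile normalization (limma, Benjamini-Hochberg adjusted p up to 0.2). Socs1, an inhibitor of cytokine and insulin signaling, measured 0.18, 0.21 and 0.12 FPKM in C26 and 8.90, 0.96 and 11.4 FPKM in control muscle. It fell by 2.74 (limma, Benjamini-Hochberg adjusted p = 0.0259), but the control values were far apart and the call was kept without Control replicate 2, at -3.61, and lost without each other muscle, at -2.76 to -2.24, with adjusted p up to 0.0898. The Socs1 value was -4.19 with a pseudocount of 0.1, and -2.16 without both libraries that stood apart, where the call was lost (limma, Benjamini-Hochberg adjusted p = 0.0127 and 0.0695).

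Pik3r1 encodes the p85α family of regulatory subunits, which tie the catalytic subunit of PI3K to IRS proteins. It measured 7.30, 8.61 and 12 FPKM in C26 and 4.19, 4.79 and 5.92 FPKM in control muscle, and the lowest C26 value lay above the highest control value. The log2 fold change was 1.01 ± 0.24 (SE), a 2.02-fold rise (limma, Benjamini-Hochberg adjusted p = 0.0204). It was the only one of the 9 calls that was lost when a muscle was left out. Without C26 replicate 2 the log2 fold change was 1.08 with an adjusted p of 0.0518, and without Control replicate 1 it was 0.89 with an adjusted p of 0.0771, both from limma with Benjamini-Hochberg adjustment.

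Of 10 class I PI3K genes, 4 were called higher, 0 lower and 6 not called by limma, and at an unadjusted p under 0.05 the counts were 4 higher and 1 lower. Over all listed genes 19.4% were called higher and 14.5% lower. Without C26 replicate 2 or Control replicate 1 the list had 2 higher calls. It had 1 lower call with a pseudocount of 0.1, without C26 replicate 3 and without both libraries that stood apart. The catalytic subunit Pik3ca measured 10.1, 12.4 and 9.58 FPKM against 6.42, 6.45 and 7.53 FPKM, a log2 fold change of 0.81 (limma, Benjamini-Hochberg adjusted p = 0.00890). Pik3r2, the p85β regulatory subunit, measured 10.01, 12.3 and 5 FPKM against 4.56, 3.45 and 3.08 FPKM, a log2 fold change of 1.30 whose call was lost without C26 replicate 1 or 2 or Control replicate 1 or 2, at 1.19, 1.08, 1.42 and 1.32 (adjusted p 0.0211 with all muscles and up to 0.0808 without one, limma with Benjamini-Hochberg adjustment). Pik3ip1, which does not build the kinase but binds and inhibits its catalytic subunit, had the largest rise of the list with all muscles. It measured 71.4, 64.1 and 55.1 FPKM in C26 and 31.7, 25.9 and 26.4 FPKM in control muscle, a log2 fold change of 1.38 (limma, Benjamini-Hochberg adjusted p = 0.00329). When a muscle was left out, Pik3r2 reached 1.70, above the highest such value of Pik3ip1, 1.52. The summed FPKM of Pik3r1, Pik3r2 and Pik3r3 was 19.1 ± 2.07 in C26 and 9.91 ± 0.407 in control muscle (SD, n = 3), and the share of Pik3r1 in it overlapped between the groups, at 41.0%, 40.0% and 66.4% against 41.1%, 50.7% and 58.7%.

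Of 20 lipid phosphatases, Akt phosphatases and Akt inhibitors, 5 were called higher, 2 lower and 13 not called, with a median log2 fold change of 0.14. The shares over all listed genes were 19.4% higher and 14.5% lower. Inpp4a, a phosphatase of inositol lipids, rose by 1.37 on the log2 scale (limma, Benjamini-Hochberg adjusted p = 0.00491), and Keap1, known mainly for holding back the transcription factor Nrf2, rose by 1.29. The phosphatase genes Ppp2ca and Phlpp1 and the pseudokinase gene Trib1 were the other genes called higher, of which Phlpp1, at 0.63, was not called without C26 replicate 1, C26 replicate 2 or Control replicate 1, at 0.55, 0.64 and 0.63, or with the replicate block (limma, Benjamini-Hochberg adjusted p = 0.0523). Trib2, a pseudokinase of the same family as Trib1, measured 1.93, 1.26 and 2.19 FPKM against 10.3, 6.92 and 20.1 FPKM and fell by 2.15 (limma, Benjamini-Hochberg adjusted p = 0.00800), and Ppp2r5a fell by 0.75, a call lost without C26 replicate 1 or 2 or Control replicate 1 or 2, at -0.73, -0.79, -0.69 and -0.66, and with a value of -1.14 under quantile normalization.

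All 3 kinases at the end of the chain rose. PDK1, the product of Pdpk1, switches on Akt and related kinases. Pdpk1 measured 11.5, 13.0 and 6.89 FPKM in C26 and 3.47, 3.60 and 3.59 FPKM in control muscle. The control values were nearly the same, with a coefficient of variation of 2.04%, and C26 replicate 3 was the lowest of its group. The log2 fold change was 1.56 ± 0.22 (SE), a 2.95-fold rise (limma, Benjamini-Hochberg adjusted p = 0.00557). The ratio of Pik3r1 to Pdpk1 was 0.634, 0.662 and 1.74 against 1.21, 1.33 and 1.65, with overlapping groups (difference -0.62 on the log2 scale, exact permutation p = 0.4, adjusted over 5 ratios 0.4).

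Akt1, the form found in most tissues, measured 205, 171 and 84.7 FPKM in the C26 muscles and 25.5, 23.1 and 30.4 FPKM in the control muscles. The lowest C26 value, again of replicate 3, was above every control value. The log2 fold change was 2.65 ± 0.30 (SE), a 6.26-fold rise (limma, Benjamini-Hochberg adjusted p = 0.00355), and it was 3.07 without C26 replicate 3. Akt2, the form most tied to insulin-driven glucose uptake, measured 184, 177 and 116 FPKM in C26 and 79.4, 86.4 and 68.4 FPKM in control muscle. It rose less, with a log2 fold change of 1.21 ± 0.22 (SE), a 2.31-fold rise (limma, Benjamini-Hochberg adjusted p = 0.0104).

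Akt1 and Akt2 thus stood at nearly the same level in C26 muscle and apart in control muscle. The ratio of Akt2 to Akt1 was 0.899, 1.03 and 1.36 in C26 and 3.11, 3.75 and 2.26 in control muscle, a difference of -1.46 on the log2 scale (exact permutation p = 0.1, the smallest possible, adjusted over 5 ratios 0.167).

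**Figure D3:**
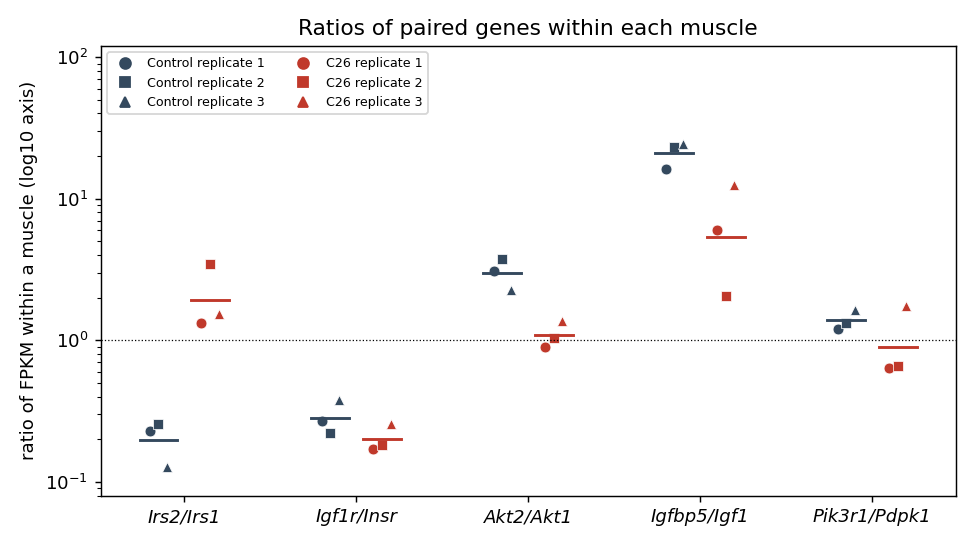
Ratios of FPKM within each muscle for 5 pairs of the 10 genes, on a log axis, with 1 point per muscle for 3 C26 and 3 control muscles and a bar at the geometric mean of the group. The groups are apart for Irs2/Irs1, Akt2/Akt1 and Igfbp5/Igf1 and overlap for Igf1r/Insr and Pik3r1/Pdpk1.

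Of 14 genes for Akt, PDK1, related kinases and mTORC2, 13 were in the table. Limma called 4 higher and 3 lower, against 19.4% and 14.5% of all listed genes, and did not call 6. The mTORC2 complex adds the second activating phosphate to Akt. Mtor, the kinase of that complex, measured 2.68, 1.66 and 2.42 FPKM in C26 and 1.25, 0.85 and 1.37 FPKM in control muscle, a log2 fold change of 0.85 (limma, Benjamini-Hochberg adjusted p = 0.0207), and the call was lost without C26 replicate 1, Control replicate 1 or Control replicate 2, at 0.75, 0.88 and 0.77. The lower genes were Deptor, Mlst8 and Prr5l, which bind Mtor in its complexes. Deptor, an inhibitor of the kinase, measured 2.81, 3.24 and 2.58 FPKM against 11.6, 10.8 and 8.67 FPKM and fell by 1.46 (limma, Benjamini-Hochberg adjusted p = 0.00394). Mlst8 fell by 0.65, a call lost without C26 replicate 1 or 2 or Control replicate 1 or 2, at -0.59, -0.55, -0.65 and -0.62, and with the replicate number as a block (limma, Benjamini-Hochberg adjusted p = 0.0783 with the block). Prr5l fell by 0.64 from a control mean of 0.457 ± 0.117 FPKM (SD, n = 3), and its call was lost without C26 replicate 1 or Control replicate 1, at -0.60 and -0.63, with the block and with quantile normalization, at -0.43. At such low levels the pseudocount sets much of the value, which was -2.14 for Prr5l with a pseudocount of 0.1.

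Of 18 Akt substrates and glucose uptake genes, 10 were called higher, 1 lower and 7 not called, with a median log2 fold change of 0.57. Over all listed genes 19.4% were called higher and 14.5% lower. The FoxO factors, which Akt holds out of the nucleus, were on both sides. Foxo1 measured 23.3, 21.2 and 14.6 FPKM in C26 and 3.99, 2.97 and 8.96 FPKM in control muscle, and Foxo3 measured 14.9, 11.2 and 15.8 against 3.24, 3.63 and 3.60 FPKM. Their log2 fold changes were 2.09 and 2.01 (limma, Benjamini-Hochberg adjusted p = 0.00794 and 0.00235). Foxo6 measured 0.35, 0.58 and 0.48 FPKM in C26 and 5.13, 4.67 and 5.11 FPKM in control muscle and fell by 2.24 (limma, Benjamini-Hochberg adjusted p = 0.000822), or by 3.07 with a pseudocount of 0.1. The value of Foxo1 was 2.71 without both libraries that stood apart. Foxo4, at 51.7 ± 15.7 against 45.9 ± 9.07 FPKM (SD, n = 3), was not called.

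Slc2a4, which encodes the insulin-responsive transporter GLUT4, measured 322, 356 and 287 FPKM in C26 and 279, 261 and 228 FPKM in control muscle. Its log2 fold change was 0.54 (limma, Benjamini-Hochberg adjusted p = 0.0410), and this call was kept without C26 replicate 3, lost without each other muscle, at 0.42 to 0.63, and lost in 6 of 7 other settings, with a value of 0.20 under quantile normalization (adjusted p = 0.349). Tbc1d4, the Akt substrate that holds the transporter inside the cell, measured 21.7, 7.13 and 8.15 FPKM against 6.01, 8.31 and 7.86 FPKM and was not called (log2 fold change 0.73, limma with Benjamini-Hochberg adjusted p = 0.210, and 0.26 without C26 replicate 1). The count of this list was 6 higher with a pseudocount of 0.1, with FPKM as deposited, with quantile normalization and with the replicate block. It was 5 without C26 replicate 1 and 6 without C26 replicate 2, Control replicate 1 or Control replicate 3, and the number called lower was 3 without C26 replicate 3 and without both libraries that stood apart.

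**Figure D4:**
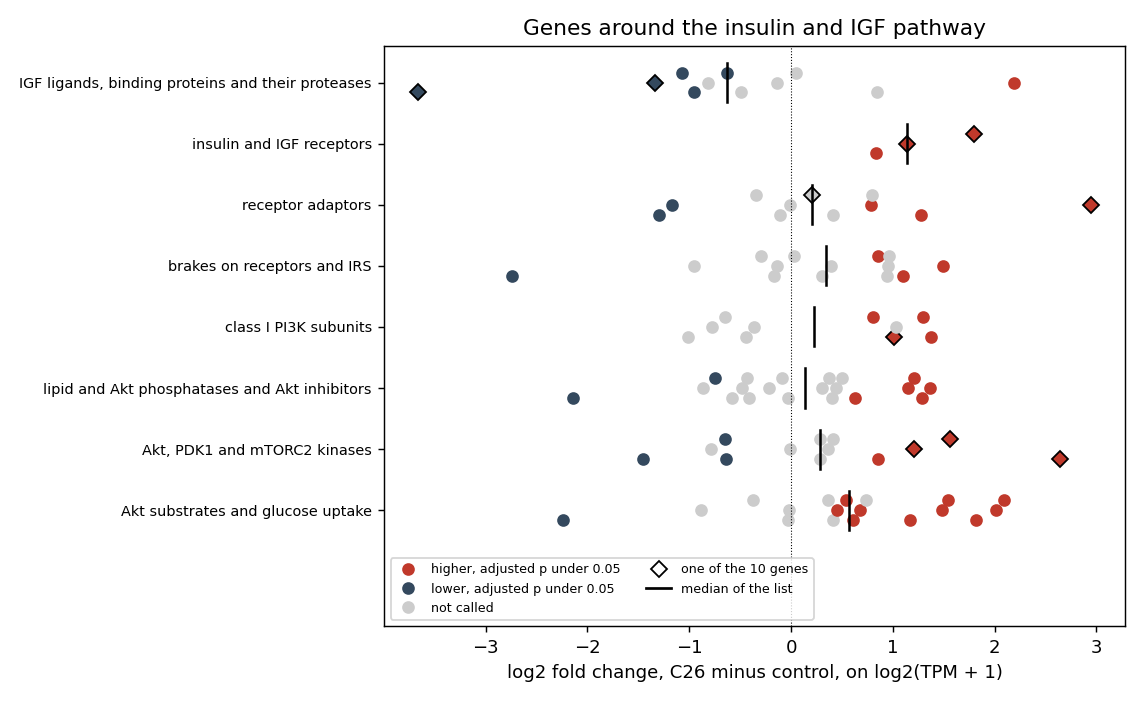
Log2 fold changes, C26 minus control on log2(TPM + 1), of the 100 genes of 8 pathway lists found in the table, with 1 point per gene colored by its limma call, diamonds for the 10 genes, and a bar at the median of each list. The medians run from -0.63 for ligands and binding proteins to 1.14 for receptors.

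Over the 8 lists, 90 of the 96 genes that are not among the 10 were in the table. Of these 26 were called higher (28.9%), 12 lower (13.3%) and 52 not called, which gives 42.2% called against 33.8% of all listed genes, and 19.4% higher and 14.5% lower. The median log2 fold change of these genes was 0.29. Their counts depended on single muscles, and the number called higher was 14 without C26 replicate 1, 15 without Control replicate 1 and 17 without C26 replicate 2, and the number called lower in the same fits was 5, 4 and 6. Without both libraries that stood apart, 34 were called higher and 17 lower.

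The order of the 10 genes by FPKM also differed between the groups. In control muscle Akt2 and Igfbp5 were highest with overlapping ranges, followed by Akt1, then by Irs1, Insr and Pik3r1 with overlapping ranges, Pdpk1 and Igf1 with overlapping ranges, and last Igf1r and Irs2 with overlapping ranges. In C26 muscle Akt2 and Akt1 overlapped at the top, Insr came next and overlapped neither neighbor, and in the run of Irs2, Pdpk1, Pik3r1, Irs1, Igfbp5 and Igf1r each gene overlapped its neighbor in that run. Igf1 was last, below the range of Igf1r. From the highest to the lowest gene, the mean level spanned 55.2-fold in control and 203-fold in C26 muscle.

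The genes whose profile over the 6 muscles was nearest to that of Irs2, by the root mean square difference of centered log2 values, were Slc7a2, a transporter of cationic amino acids, at 0.145, Spsb1 at 0.171 and Nploc4 at 0.18. Those nearest to Igfbp5 were Crip3 at 0.200, Lrrc38 at 0.215 and Mettl21c at 0.216. Slc7a2 measured 134, 107 and 124 FPKM in C26 and 20.6, 22.2 and 13.0 FPKM in control muscle, with the lowest control value in the same muscle as that of Irs2. Crip3 measured 0.52, 0.25 and 0.75 FPKM against 16.5, 15.3 and 18.6 FPKM, with the lowest C26 value in the same muscle as that of Igfbp5.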

How the data were processed

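Total RNA of gastrocnemius muscle was sequenced by the authors as single-end reads of 50 bases after rRNA removal. The deposited values are FPKM with 2 decimals that the authors estimated with RSEM. The submitters' processing notes name HISAT2 2.0.4, Bowtie2 2.2.5 and RSEM 1.2.12. The genome is GRCm38.p5 in the methods and mm9 in those notes, so no coordinates of the measured transcripts are given. The methods describe TRIzol extraction from muscle, whereas the extraction text of the labels, after naming gastrocnemius muscle, refers to a kit and to infected THP-1 cells, a human monocyte line. No read counts were used, and the sequencing depth is therefore unknown, and the spread between 3 muscles is the measure of precision. The labels give groups and replicate numbers, but do not say whether each library is 1 mouse, so p-values measure only the spread between these libraries, which may be partly technical.

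Entrez IDs were matched to symbols for 13327 of 13363 genes. The FPKM of each muscle were scaled to add up to 1000000 (TPM), then adjusted by TMM, for which 30% of log ratios and 5% of mean levels were set aside at each end. C26 and control muscles were compared on log2(TPM + 1) with limma 3.58.1 (R 4.3.3, empirical Bayes) in two-sided tests, and all 13363 p-values were adjusted together after Benjamini-Hochberg. The code was tested on simulated data. Promoter letters came from RefSeq GRCm38.p6, and figures from Python 3.11.15 with matplotlib 3.10.9.

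The 10 genes and all lists were chosen with earlier results of these data known. Named besides the 10 were up to 3 called genes per list with the largest changes, Pik3r2, Pik3ca, Mtor, Slc2a4 and Tbc1d4, and the genes nearest in profile. Other genes that this rule names are not reported here. Gab2, Trim72, Igf2, Igfbp4, Prr5l, Ppp2ca, Ppp2r5a, Phlpp1, Trib1 and Foxo4, the family shares, the named fibroblast and leukocyte markers and the genes that mark the libraries standing apart were chosen after their values were seen. Alternatives were other pseudocounts, filters, scalings, a replicate block, a trend in the prior variance and leaving out each muscle.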

Additional observations from a re-analysis of the deposited data

How the results depend on the processing

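Of the 10 genes, 7 higher and 2 lower calls were found under each alternative pseudocount, filter, scaling and prior, and 6 to 7 higher and 2 lower when 1 muscle was left out. Without 1 muscle the log2 fold change of Pik3r1 ranged from 0.86 to 1.17, with its call lost in 2 of 6 fits, and that of Irs1 from -0.11 to 0.61. It was reversed, at -0.11, without C26 replicate 1, where it was not called. Over all listed genes 2589 were called higher and 1932 lower. Without 1 muscle these counts ranged from 1128 to 3311 and from 669 to 2160, and those of the 90 pathway genes outside the 10 from 14 to 29 and from 4 to 14. With FPKM as deposited 1678 genes were called higher and 2504 lower, so that 40.1% of the calls were higher against 57.3%, and the median of all genes shifted by -0.098. Same-numbered muscles did not deviate together (r = -0.04, -0.08 and -0.11), so the numbers were not taken to pair the muscles. With the replicate block, which leaves fewer residual degrees of freedom, 1839 genes were called higher and 1235 lower, and the 10 genes kept their 7 higher and 2 lower calls, with adjusted p from 0.0156 for Irs2 to 0.0302 for Pik3r1 (limma, Benjamini-Hochberg). Without both libraries that stood apart, an alternative chosen after seeing the data, 3780 genes were called higher and 2805 lower. No ratio changed sign. Foxo4, which was not called, was reversed with quantile normalization, at -0.047. With no counts, the counting error of low genes could not be given, and their fold changes moved with the pseudocount, as from -0.64 to -2.14 for Prr5l with 0.1 in place of 1.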

Other observations

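Control replicate 3, the muscle with 40.1 FPKM of the leukocyte gene Ptprc, also held the highest control values of PI3K genes that are typical of leukocytes, which were picked out after their values were seen. Pik3cd, the p110δ catalytic subunit, measured 4.47 FPKM there and 1.08 and 0.93 FPKM in the other control muscles. Pik3cg measured 2.43 FPKM against 0.18 and 0.07 FPKM, its regulatory partner Pik3r5 3.27 FPKM against 0.30 and 0.12 FPKM, and Inpp5d, a lipid phosphatase of blood cells, 11.2 FPKM against 1.06 and 0.52 FPKM. These 4 genes were not called by limma. Of the 10 genes, Igf1r, Pik3r1 and Akt1 also had their highest control value in that muscle, at 1.91, 5.92 and 30.4 FPKM, and Igf1, Insr, Irs1, Irs2 and Akt2 had their lowest there.

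Tbc1d1, an Akt substrate related to Tbc1d4, measured 35.4 FPKM in C26 replicate 3 and 1.32 and 2.11 FPKM in the other C26 muscles, against 9.59 to 14.9 FPKM in control muscle. C26 replicate 3 thus lay above all control muscles and the others lay below them, and the gene was not called by limma. It is the muscle with the high Myh1 and Mb values and, of the 10 genes, with the lowest C26 values of Igf1, Insr, Irs2, Pdpk1, Akt1 and Akt2 and the highest of Igfbp5 and Pik3r1.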
